A study of Mus musculus with 12 samples.

Results

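Genes that are silent in untreated cells but lie just past the 3′ end of an expressed gene were followed through drug treatment. RNA was sequenced from NIH/3T3 cells, an established mouse embryonic fibroblast line labelled as wild type. The 4 groups of 3 libraries each received the DMSO vehicle, carfilzomib at 200 nM (CFZ), doxorubicin at 5 µM (DOX), or both drugs at those doses (CFZ-DOX), all for 8 h. Carfilzomib is an irreversible proteasome inhibitor, while doxorubicin, an anthracycline, inserts itself between DNA bases and traps topoisomerase II on DNA. The labels do not say whether libraries 1 to 3 of a group came from separate cultures, and the p-values cover no more than the spread among these libraries, which may be technical.

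A gene was called silent when its mean in the 3 DMSO libraries was under 0.05 CPM (read counts scaled to the library total) and its summed exon length was at least 300 bases. It was called expressed at a DMSO mean of at least 5 CPM. Of 56980 annotated genes, 29911 were silent and 9835 were expressed. The rule kept the 1400 silent genes that overlapped no expressed gene and had their nearest edge within 10 kb past the 3′ end of one. These are called downstream genes here. For a gene on the strand opposite to its neighbour, that edge is its own 3′ end and not its start. With the start read by the gene's own strand, 962 genes qualified. They lay past 1250 different expressed neighbours, of which 129 had more than 1 downstream gene (279 genes, at most 4 for 1 neighbour), so those genes share a neighbour and are not counted as independent. Compared with them were 1289 silent genes within 10 kb before the 5′ end of an expressed gene and past no 3′ end (upstream genes), and 15661 silent genes over 100 kb from any expressed gene (far genes). All of these genes were chosen by their CPM in the 3 DMSO libraries, so DMSO values are given as a description and no comparison is made with DMSO. The DMSO libraries do enter the edgeR model's filter and estimate of spread. Fitted without them, 327 downstream genes rose in CFZ-DOX against CFZ, 80 in CFZ-DOX against DOX and 318 in DOX against CFZ, each within 1.5 times the count given below.

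RNA polymerase II does not stop at the end of a gene. The nascent transcript is cut after a poly(A) signal, usually the hexamer AATAAA or its variant ATTAAA, and polymerase then travels on until exonucleases and termination factors release it. When cleavage or termination is slowed, as is known for heat, osmotic stress and some viral infections, transcripts run on for many kilobases and are called read-through or downstream-of-gene transcripts. Reads from such a transcript that cross the exons of the next gene are counted for that gene in a table of reads per gene. A gene can equally be transcribed from its own promoter, and a table of reads per gene does not tell these apart.

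The last 30 bases of the outermost annotated transcript are shown for 6 expressed neighbours whose downstream genes are described below, because the poly(A) signal lies there. Capitals mark AATAAA or ATTAAA, and Jund has neither.
Tap1: tttgtAATAAAactggtgttttgtactgtg
Cirbp: gttgcctgAATAAAgggctgtgacccagaa
Hcfc1r1: ttagtgAATAAAgacctgtgagcagttgaa
Bsdc1: ccataacagcATTAAAgtgattgaacagaa
Ptbp1: tgtactcacATTAAAtcttaaaaaaaattc
Jund: tgtgttttcagtaaagtcttcgttacgcca

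The hexamers AATAAA and ATTAAA were searched on the transcript strand in the last 40 bases of these transcripts. AATAAA was present in 64.6% of the 1247 neighbours that could be matched, ATTAAA without AATAAA in 15%, and neither in 20.4%. Over the 9797 matched expressed genes the shares were 61.4%, 14.3% and 24.3%. Neighbours with a downstream gene at or above 0.05 CPM in CFZ-DOX (852) had AATAAA in 63.9%, and the other 398 in 66.2%. These shares lay close together.

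A pair of promoters shows the range of sequence at the starts of the downstream genes described below, with CpG dinucleotides in capitals. They are RefSeq windows from 250 bases before to 50 after the start, in build GRCm38.p6. The window of Efna2 (chr10:80179232-80179531, plus strand) held 31 CpG and that of Iqcn (chr8:70701775-70702074, plus strand) held 1, and both genes rose with doxorubicin. At least 15 CpG on these windows occurred in 37.1% of all 27025 genes in that table.
Efna2: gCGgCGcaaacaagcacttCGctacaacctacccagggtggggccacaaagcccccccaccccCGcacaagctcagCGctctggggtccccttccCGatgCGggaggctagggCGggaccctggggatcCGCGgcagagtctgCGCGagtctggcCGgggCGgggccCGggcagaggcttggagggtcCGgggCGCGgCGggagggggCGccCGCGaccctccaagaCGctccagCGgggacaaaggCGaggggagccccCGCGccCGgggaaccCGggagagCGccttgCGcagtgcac
Iqcn: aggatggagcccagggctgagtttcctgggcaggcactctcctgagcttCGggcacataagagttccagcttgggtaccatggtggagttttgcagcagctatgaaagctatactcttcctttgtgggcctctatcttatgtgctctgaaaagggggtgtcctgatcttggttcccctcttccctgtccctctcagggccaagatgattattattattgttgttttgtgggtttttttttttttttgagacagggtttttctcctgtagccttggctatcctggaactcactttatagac

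Library totals ran from 28278879 to 42033993 counts, at which 3 counts, the limit that a count of 0 allows, equal 0.0714 to 0.106 CPM. Intervals and limits here cover counting error only. All 9 fibroblast markers were above 1 CPM in every group, with a summed level of 18710 to 75000 CPM over the 12 libraries. The 4 immune markers summed to 1.02 to 1.47 CPM in DMSO, 2.26 to 4.92 CPM in DOX and 7.96 to 13.9 CPM in CFZ-DOX. Nearly all of that was Cd68, while Ptprc and Cd3e averaged at most 0.0824 CPM in any group. In bulk RNA, fewer cells of a kind and less RNA per cell cannot be told apart.

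Many downstream genes gave counts once doxorubicin was present, and few did with carfilzomib alone. The threshold of 0.05 CPM was reached by 112 of 1400 (8.00%) in CFZ, 766 (54.7%) in DOX and 913 (65.2%) in CFZ-DOX. Scaled to ribosomal protein genes, the shares were 8.07%, 43.5% and 45.6%. The CFZ libraries did not overlap those with doxorubicin. In single libraries the share was 9.14% to 12.2% in CFZ, 46.2% to 58.7% in DOX and 61.6% to 65.1% in CFZ-DOX. DMSO libraries, low by the rule, had 3.64% to 8.14%. In a single library the counts needed for 0.05 CPM depend on depth. The lowest DMSO and DOX shares were those of the deepest libraries, DMSO 2 (40134000 counts) and DOX 1 (42033993 counts). Far genes reached the threshold in 1.21%, 1.69% and 1.56% of cases in CFZ, DOX and CFZ-DOX.

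**Figure D1:**
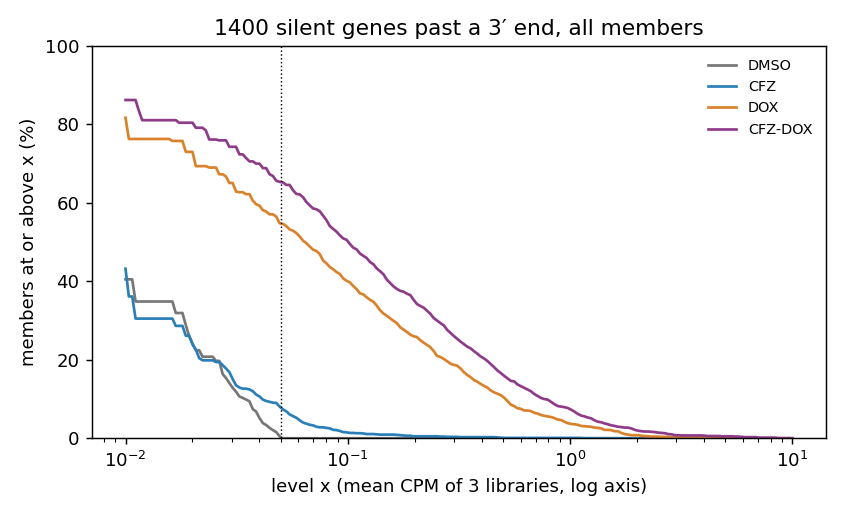
Percent of the 1400 downstream genes (y axis) whose mean over the 3 libraries of a treatment is at or above the CPM on the x axis (log axis), with 1 line for each treatment and a dotted line at the threshold of 0.05 CPM. The DOX and CFZ-DOX lines cross the threshold at 54.7% and 65.2% and the CFZ line at 8.00%, while DMSO is at 0 there by the rule.

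The levels were low and spread over many genes. The median downstream gene had 0.0647 CPM in DOX and 0.102 CPM in CFZ-DOX, and was at 0 in CFZ. Only 1 gene reached 1 CPM in CFZ, against 53 in DOX and 102 in CFZ-DOX. The 10 highest genes held 17.8% of the counts of all 1400 in CFZ, 11.6% in DOX and 14% in CFZ-DOX. The highest single gene held 2.17% in DOX (Tssk3) and 1.99% in CFZ-DOX (Efna2).

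The set in DOX was mostly contained in that of CFZ-DOX. Of the genes at the threshold, 715 reached it in both, which is 93.3% of those in DOX and 78.3% of those in CFZ-DOX. A further 51 reached it in DOX only and 198 in CFZ-DOX only, while 429 reached it in no treatment. No count in any of the 12 libraries was found for 89 of the 1400.

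Per length, the 1400 genes together had 0.00769 ± 0.000927 RPKM, which is CPM per kilobase of exon, in CFZ (SD, n = 3), 0.0962 ± 0.0210 in DOX and 0.149 ± 0.0540 in CFZ-DOX. This level is the sum of their counts over the sum of their exon lengths, scaled by the library total. By library it was 0.00868, 0.00685 and 0.00753 RPKM in CFZ, 0.0754, 0.0960 and 0.117 in DOX, and 0.0946, 0.149 and 0.203 in CFZ-DOX. Every doxorubicin library was above every CFZ library, whereas DOX and CFZ-DOX overlapped. Each CFZ-DOX library was above the DOX library of the same number, in this level and in the share at 0.05 CPM, which also depends on depth. DMSO, low by the rule, stood at 0.00559 ± 0.000352 RPKM. Far genes had 0.00140 RPKM in CFZ, 0.00277 in DOX and 0.00237 in CFZ-DOX.

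**Figure D2:**
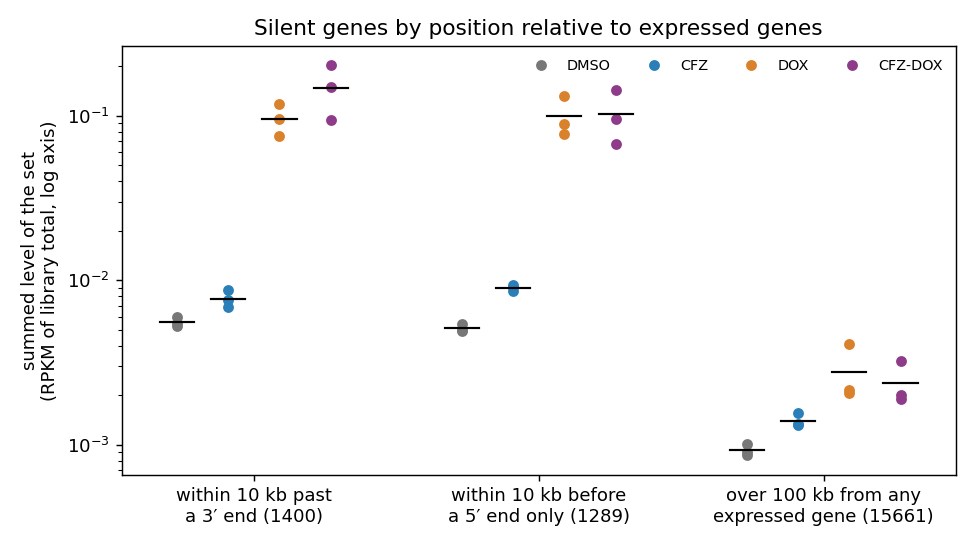
Summed RPKM of downstream, upstream and far silent genes (y axis, log axis), with 1 point for each library, coloured by treatment, and a bar at the mean of 3. Downstream genes averaged 0.0962 RPKM in DOX and 0.149 in CFZ-DOX, and far genes 0.00277 and 0.00237.

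Silent genes before the 5′ end of an expressed gene gave counts with doxorubicin as well. Of the 1289 upstream genes, 8.30% reached 0.05 CPM in CFZ, 53.1% in DOX and 54.8% in CFZ-DOX, and their summed level was 0.00902, 0.0996 and 0.102 RPKM. The downstream level divided by the upstream level was 0.979, 1.07 and 0.886 in the DOX libraries and 1.40, 1.56 and 1.41 in the CFZ-DOX libraries. It was 1.01, 0.730 and 0.832 in CFZ. All CFZ-DOX libraries were thus above all others in this ratio (DMSO 1.07, 1.10 and 1.12), which no scaling of a library can change. In DOX alone, downstream and upstream genes of all classes together stood at about the same level by this ratio. Gene classes differed between the sets, with 715 protein-coding genes downstream and 414 upstream. Protein-coding genes alone had 0.0742, 0.0948 and 0.118 RPKM downstream in the DOX libraries. Upstream they had 0.0596, 0.0711 and 0.104, lower in each DOX library. In CFZ-DOX the protein-coding means were 0.152 downstream and 0.0864 upstream. The downstream set keeps 220 genes that also lie before another expressed gene, while upstream genes lie past no 3′ end. Without those 220 the ratio was 0.83, 0.94 and 0.73 in DOX and 1.23, 1.40 and 1.235 in CFZ-DOX. It was 0.856, 0.606 and 0.689 in CFZ and 1.02 to 1.025 in DMSO, so CFZ-DOX was still highest.

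**Figure D3:**
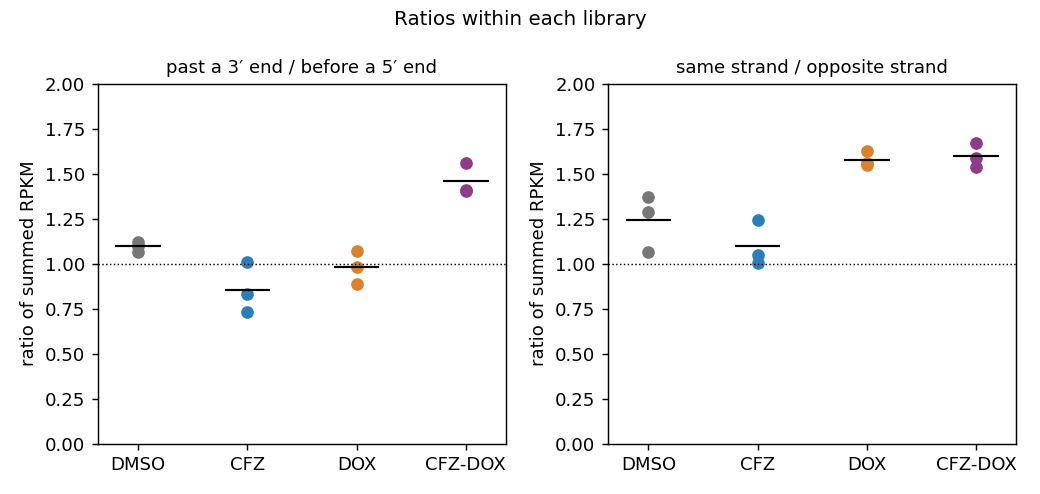
Ratios of summed RPKM within each library (y axes, from 0) by treatment (x axes), downstream over upstream genes on the left and same-strand over opposite-strand downstream genes on the right, with 1 point for each library, a bar at the mean of 3 and a dotted line at 1. The CFZ-DOX libraries lie at 1.40 to 1.56 on the left, above the 9 others. Downstream genes here include the 220 that also lie before another expressed gene.

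The downstream level divided by the far level was 4.85 to 6.61 in the 6 libraries without doxorubicin, 28.5 to 46.9 in DOX and 50.1 to 74.3 in CFZ-DOX. Lengths and gene classes differ between these sets, with a median exon length of 1445 bases downstream and 993 in far genes. Among protein-coding genes alone, 68.5% of downstream genes were at 0.05 CPM in DOX and 78.3% in CFZ-DOX, against 3.42% and 2.98% of 4330 far genes. At lengths of at least 3000 bases the shares were 73.0% and 79.0% downstream and 5.09% and 3.68% in far genes. The gap between downstream and far genes was present among protein-coding genes and among the longest genes. The protein-coding sets also differed in promoters, with at least 15 CpG in 32.45% of matched downstream and 11.3% of matched far genes. Whether this bears on the gap was not tested.

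The share of genes at the threshold fell with distance from the neighbour. Each gene was binned only on the side of the nearer end. The 3′ bins thus leave out genes as near or nearer to a 5′ end of an expressed gene, and the 5′ bins the reverse. In CFZ-DOX, 73.9% of 165 silent genes within 1 kb past the 3′ end reached 0.05 CPM, 67.1% of 401 at 2 to 5 kb and 56.0% of 554 at 5 to 10 kb. Beyond the rule's limit the share was 46.9% at 10 to 20 kb, 22.7% at 20 to 50 kb and 8.61% at 50 to 100 kb. DOX gave 63.6%, 53.4% and 46.6% in the same 3 bins within 10 kb, and 36.1%, 19.3% and 10.1% beyond. On the 5′ side the CFZ-DOX share was 65.0% of 360 genes within 1 kb, 49.9% at 5 to 10 kb and 6.82% at 50 to 100 kb. The decline therefore occurred on both sides of expressed genes.

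**Figure D4:**
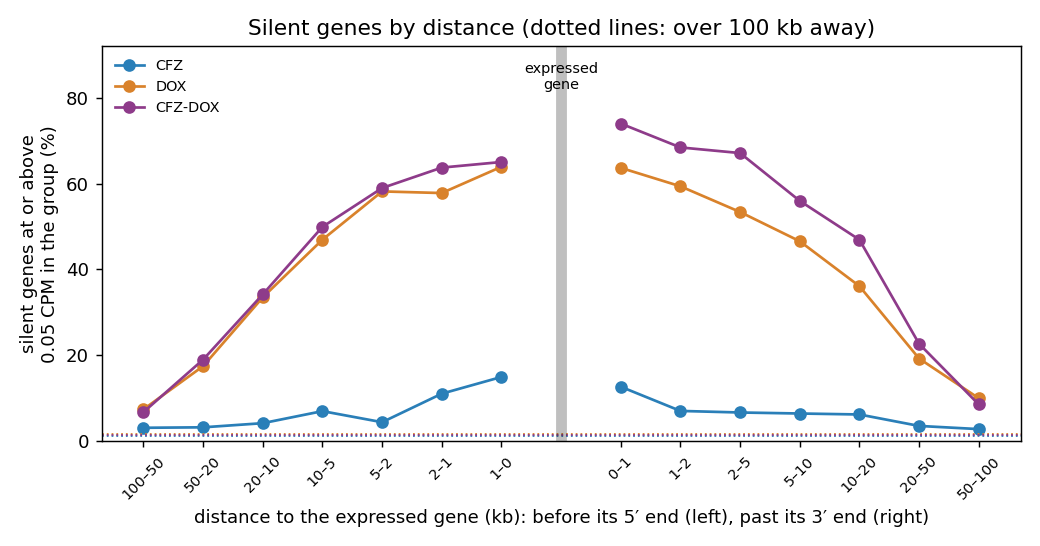
Percent of silent genes at or above 0.05 CPM (y axis) by distance in kb to the expressed gene (x axis, bins of unequal width), before its 5′ end on the left and past its 3′ end on the right, for CFZ, DOX and CFZ-DOX, with dotted lines for far genes. In CFZ-DOX the share past the 3′ end goes from 73.9% within 1 kb to 8.61% at 50 to 100 kb. Each gene is binned only on the side of the nearer end of an expressed gene.

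Same-strand and opposite-strand genes differed more in level than in the share of genes. Of the downstream genes, 578 lay on the strand of their neighbour and 822 (58.7%) on the opposite strand. Their median exon lengths were 1290 and 1587 bases, and whether length bears on the difference in level was not tested. The threshold was reached in CFZ-DOX by 63.0% of same-strand and 66.8% of opposite-strand genes. The summed level of same-strand genes divided by that of opposite-strand genes was 1.55 to 1.63 in DOX and 1.54 to 1.67 in CFZ-DOX, against 1.0 to 1.24 in CFZ and 1.06 to 1.37 in DMSO. The strand setting of the authors' counting is not given in the sources used here, and reads from the neighbour's strand cannot be told apart from reads of an opposite-strand gene.

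The share at 0.05 CPM differed between gene classes of unlike length, while the level per length was close in protein-coding genes and pseudogenes. Protein-coding genes made up 715 of the 1400, processed pseudogenes 189 and long intergenic RNAs 145. All pseudogene classes together (239) reached the threshold in 34.7% of cases in DOX and 43.5% in CFZ-DOX. Their median exon length was 623 bases, against 2521 in protein-coding genes, and their summed CFZ-DOX level was 0.157 RPKM against 0.152. Genes of 1 exon block reached the threshold in 51.8% of cases in CFZ-DOX and those of 2 or more in 70.2%, at 0.150 and 0.149 RPKM. The 220 genes that also lay within 10 kb before another expressed gene reached the threshold in 81.4%, and the 1180 that did not in 62.2%. By the neighbour's DMSO level per length, with the genes cut into 3 classes of near equal size, the CFZ-DOX share was 57.0% in the lowest class and 71.1% in the highest.

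Adding doxorubicin to carfilzomib raised many downstream genes. The median downstream gene was at 0 in CFZ, so few had counts to lose, and the lack of falls is not read as a result. All 3 CFZ-DOX libraries were above all 3 CFZ libraries for 765 of the 1400 (54.6%) and below them for 5 (0.357%). Over all 56980 genes these shares were 15.9% and 13.4%. Among upstream genes 554 (43.0%) were above and 5 (0.388%) below, and among far genes 134 (0.856%) and 73 (0.466%). By edgeR's quasi-likelihood test at an adjusted p under 0.05, 326 downstream genes rose and 0 fell, where 40.4% and 36.9% of the 16648 genes tested rose and fell. No downstream gene fell at an unadjusted p under 0.05 or by DESeq2 (0 in each). Only 330 of the 1400 passed the filter on low counts, mostly through the doxorubicin groups, so the edgeR count lends no support of its own. Without that filter, 784 of the 1311 that had any count rose and 0 fell, where 27.5% and 17.7% of 35429 genes did.

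DOX against CFZ gave a like picture, again with little room to fall from CFZ. All 3 DOX libraries were above all 3 CFZ libraries for 628 downstream genes (44.9%) and below for 8, against 16.3% and 11.2% of all genes. Among upstream genes, 560 (43.4%) were above. By edgeR 316 rose and 1 fell, where 39.0% and 33.2% of tested genes did. Because of the filter on low counts, this edgeR count too lends no support of its own. With only the 6 libraries compared in the fit, 165 rose.

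Adding carfilzomib to doxorubicin raised a smaller group, and this depended on scaling. All 3 CFZ-DOX libraries were above all 3 DOX libraries for 226 downstream genes (16.1%) and below for 33 (2.36%), against 4.23% and 6.94% of all genes. Upstream genes gave 87 (6.75%) above and 67 (5.20%) below. By edgeR 91 downstream genes rose and 1 fell, where 10.3% and 12% of tested genes did. Some of these passed the filter on low counts only through CFZ-DOX, so this count too lends no support of its own. With the replicate number as a block 129 rose and 1 fell. Scaled to ribosomal protein genes, which moved the median of all genes by -0.78 on the log2 scale, 14 rose and 10 fell, and the summed levels became 0.0575 RPKM in DOX and 0.0601 in CFZ-DOX. With library totals alone 39 rose, with only the 6 libraries compared 55, and without CFZ-DOX library 2 the count was 53.

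Named genes were the highest in DOX, CFZ-DOX and CFZ and the largest changes between CFZ-DOX and DOX. Psmb8, Cldn6, Nkpd1, Ushbp1, Slc39a4, Gm14257 and Gm16208 also lie within 10 kb before the 5′ end of another expressed gene. Positions are in build GRCm39, and adjusted p-values are from edgeR over all genes tested. The genes were picked by level or change, and most passed the filter on low counts only through groups where they were high. Their p-values describe the genes picked and lend no support of their own. Where CFZ held 1 to 3 counts, the fold is the ratio of pooled counts with its exact 95% counting interval. Where CFZ held none it is a lower bound against 3 counts over the group, 0.0292 CPM.

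Tssk3 encodes a testis-specific serine kinase. It lies on chromosome 4 from 129382807 to 129384815, minus strand, 516 bases past Bsdc1 on the opposite strand. It had 0.0307, 0.0252 and 0 CPM in CFZ, 4.73, 8.34 and 5.16 in DOX, and 3.47, 4.06 and 6.90 in CFZ-DOX. The doxorubicin groups overlapped each other and stood far above CFZ. DOX over CFZ was 307-fold (84.5 to 2537) with an adjusted p of 3.35e-08 by edgeR. Bsdc1 itself averaged 31.2 CPM in DMSO, 74.9 in CFZ, 34.2 in DOX and 33.4 in CFZ-DOX.

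Psmb8, a catalytic subunit of the immunoproteasome, lies on chromosome 17 from 34416695 to 34420428, plus strand, 496 bases past Tap1 on the same strand. Tap1 encodes a subunit of the peptide transporter of antigen presentation. Psmb8 had 0, 0.0252 and 0.0657 CPM in CFZ, 3.21, 4.44 and 7.17 in DOX, and 5.14, 5.03 and 10.6 in CFZ-DOX. DOX and CFZ-DOX overlapped, although each CFZ-DOX library was above the DOX library of its number. Their log2 difference was 0.70 (SE 0.27, edgeR adjusted p = 0.0793). Tap1 averaged 12.7 CPM in DMSO, 29.0 in CFZ, 66.7 in DOX and 53.4 in CFZ-DOX. Further along, past Tap2, the class II genes H2-Ob, H2-Ab1 and H2-Aa averaged at most 0.0993 CPM in every group.

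Efna2 encodes ephrin-A2, a membrane ligand of Eph receptors, and lies on chromosome 10 from 80015316 to 80025844, plus strand. Its start is 6696 bases past Cirbp, a cold-inducible RNA-binding protein, on the same strand. It had 0, 0.0252 and 0 CPM in CFZ, 2.71, 4.29 and 4.88 in DOX, and 6.0, 8.64 and 11 in CFZ-DOX. Every CFZ-DOX library was above every DOX library, by 1.33 on the log2 scale (SE 0.25, edgeR adjusted p = 0.00301). Cirbp rose from 10.4 CPM in CFZ to 110.2 in DOX and 103.3 in CFZ-DOX.

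Cldn6, a claudin of embryonic tight junctions, lies on chromosome 17 from 23898223 to 23901420, plus strand, 4022 bases past Hcfc1r1 on the same strand. It was at 0 in all CFZ libraries and had 1.57, 2.92 and 3.12 CPM in DOX and 4.18, 9.30 and 11.9 in CFZ-DOX. CFZ-DOX was at least 274-fold higher than CFZ. Over DOX it rose by 1.93 on the log2 scale (SE 0.35, edgeR adjusted p = 0.00278), with no overlap.

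Iqcn, an IQ-motif protein, lies on chromosome 8 from 71156106 to 71170299, plus strand, 2841 bases past Jund on the same strand. It had no count in any DMSO or CFZ library, then 1.67, 1.64 and 3.22 CPM in DOX and 2.66, 4.92 and 8.59 in CFZ-DOX. CFZ-DOX was at least 175-fold higher than CFZ. Over DOX it rose by 1.49 on the log2 scale (SE 0.33, edgeR adjusted p = 0.0107), and the libraries overlapped although each CFZ-DOX library was above the DOX library of its number. Jund, a member of the AP-1 transcription factor, averaged 9.07 CPM in CFZ and 8.27 in DOX, so Iqcn rose where its neighbour was not called (edgeR adjusted p = 0.699).

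The other 3 of the 8 highest genes in CFZ-DOX were Mpig6b, Prtn3 and Themis2. Mpig6b, an inhibitory receptor of platelets (chromosome 17, 35281669 to 35285160, minus strand), lies 598 bases past Ddah2 on the opposite strand. It was at 0 in CFZ, at 1.90, 1.95 and 2.29 CPM in DOX, and at 4.59, 5.78 and 10.4 in CFZ-DOX. CFZ-DOX was above DOX by 1.93 on the log2 scale (SE 0.25, edgeR adjusted p = 0.000385). Prtn3, a protease of neutrophil granules (chromosome 10, 79710310 to 79719008, plus strand), lies 9705 bases past Ptbp1. It was at 0 in CFZ, at 1.74, 2.10 and 1.45 CPM in DOX, and at 3.47, 5.96 and 8.66 in CFZ-DOX. Themis2, a signalling adaptor of lymphoid and myeloid cells (chromosome 4, 132509154 to 132523698, minus strand), had 1.02, 2.01 and 2.57 CPM in DOX and 3.26, 6.16 and 8.31 in CFZ-DOX. For all 3 genes no CFZ-DOX library was as low as any DOX library. Ptprc, the pan-leukocyte marker, averaged 0.0824 CPM in DOX and 0.0521 in CFZ-DOX, while Cd68 went from 3.60 to 10.2 CPM.

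Other genes among the 8 highest in DOX were not called between DOX and CFZ-DOX. Nkpd1 (chromosome 7, 19251763 to 19258981, past Trappc6a) had 2.59, 2.95 and 5.16 CPM in DOX and 1.67, 1.34 and 4.67 in CFZ-DOX. Ushbp1 (chromosome 8, 71836916 to 71848446, past Ocel1) averaged 2.86 and 2.44 CPM. Kbtbd11, a kelch-repeat protein (chromosome 8, 15061025 to 15083333, 9940 bases past Arhgef10), averaged 2.29 and 2.68 CPM. The libraries of DOX and CFZ-DOX overlapped for each, and edgeR's adjusted p for the difference was 0.582, 0.920 and 0.340.

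**Figure D5:**
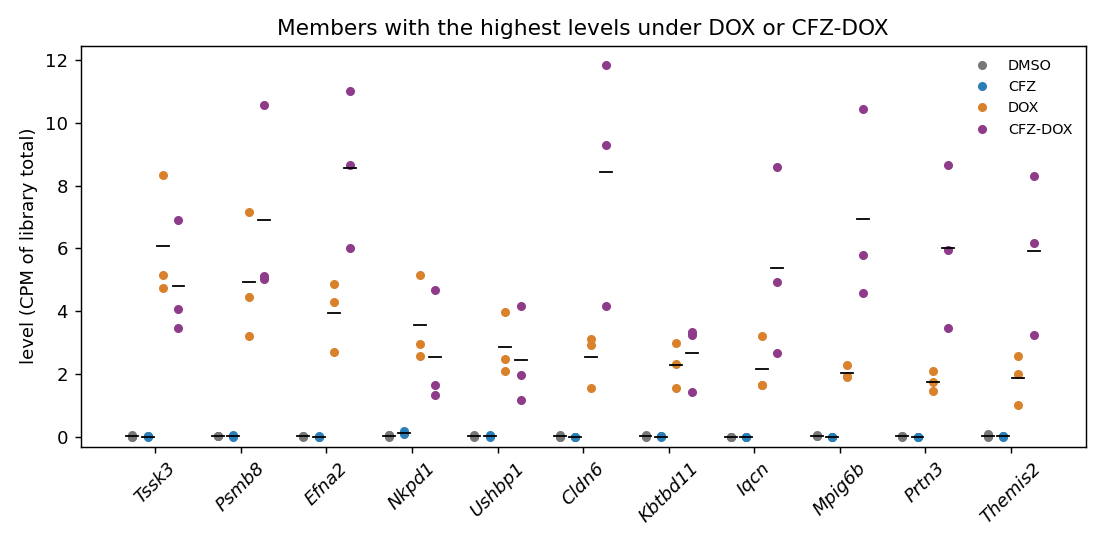
CPM (y axis, linear) of the downstream genes with the highest levels in DOX or CFZ-DOX, with 1 point for each library, coloured by treatment, and a bar at the mean of 3. DOX and CFZ-DOX overlap for Tssk3 and Nkpd1, while all CFZ-DOX libraries are higher for Efna2, Cldn6 and Mpig6b.

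A few genes already had counts with carfilzomib alone. Slc39a4, an intestinal zinc importer (chromosome 15, 76496583 to 76501584, minus strand, past Vps28), had 1.23, 0.756 and 1.44 CPM in CFZ. It had 1.69, 1.49 and 1.82 CPM in DOX and 1.77, 1.62 and 1.80 in CFZ-DOX. All 6 doxorubicin libraries lay above the 3 CFZ libraries, and CFZ-DOX was above CFZ by 0.89 on the log2 scale (SE 0.30, edgeR adjusted p = 0.0132). Lexm was highest in CFZ, at 0.307, 0.655 and 0.525 CPM. It had 0, 0 and 0.0927 CPM in DOX, and was the 1 downstream gene that edgeR called lower in DOX than in CFZ among the 330 tested (log2 change -3.95, SE 0.73, edgeR adjusted p = 0.000221). In CFZ-DOX it had 0.209, 0.172 and 0.212 CPM, all above DOX (log2 change 2.90, SE 0.83, edgeR adjusted p = 0.0233). Gm14257, an antisense RNA past Acss2, averaged 0.481 CPM in CFZ, 0.441 in DOX and 0.309 in CFZ-DOX.

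Besides Lexm, the largest called rises from DOX to CFZ-DOX were in Arhgdig, Gm38100 and Fxyd4. These genes passed the filter on low counts only through CFZ-DOX, the group where they were high. Arhgdig, past Axin1, had 0.0714, 0.0304 and 0.0309 CPM in DOX and 0.496, 0.379 and 0.460 in CFZ-DOX (log2 change 3.40, SE 0.64, edgeR adjusted p = 0.00265). Gm38100, past Exo1, went from 0.168 to 1.58 CPM (log2 change 3.39, edgeR adjusted p = 0.000142). Fxyd4, of the family that modulates the sodium pump, went from 0.135 to 0.606 CPM past Hnrnpf (log2 change 2.31, edgeR adjusted p = 0.00362). Sec14l5, past Nagpa, was the 1 that edgeR called lower among the 330 tested, going from 0.404, 0.517 and 1.55 CPM to 0.131, 0.344 and 0.248 (log2 change -1.5, edgeR adjusted p = 0.0306). Without DOX library 3, edgeR called 0 lower, as was so without CFZ-DOX library 1 or 3.

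The rule's thresholds had close neighbours on both sides. Just inside the CPM threshold were Ucma (0.0498 CPM in DMSO) and Gldc (0.0497), and just outside were Bhlha15 and Gm13807 (0.0505 each). Just inside the distance limit were Gm45623 (9994 bases) and Gm16208 (9961), and just outside Gm5294 (10003) and Gm34653 (10006). In CFZ-DOX, Bhlha15 reached 0.780 CPM and Gm5294 0.192, so genes just outside gave counts too.

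The expressed neighbours mostly did not rise with their downstream genes. In CFZ-DOX against CFZ, edgeR called 328 of the 1250 higher and 657 lower, with a median log2 change of -0.49, near the -0.51 of all expressed genes. Downstream genes reached 0.05 CPM in CFZ-DOX in 63.3% of cases past a neighbour that rose, 64.1% past one that fell and 70.3% past one that was not called. Their summed CFZ-DOX level was 0.198, 0.121 and 0.160 RPKM, so the level was highest past neighbours that rose. Per 1000 RPKM of the neighbours, the downstream level was 0.240 to 0.406 RPKM in the 6 libraries without doxorubicin, 3.03 to 4.67 in DOX and 3.78 to 7.98 in CFZ-DOX.

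Genes that end transcription and clear its products were mostly lower with doxorubicin under the main scaling, as were many expressed genes. Of 33 genes of 3′ end processing and termination, 2 rose and 21 fell in CFZ-DOX against CFZ (median log2 change -0.92, against 0.09 over all genes tested). Of the 9835 expressed genes, 2472 rose and 5228 fell there, with a median of -0.51, and nothing particular to the lists is read from their counts. Wdr33, which reads the poly(A) signal, fell by 2.25 on the log2 scale (SE 0.17, edgeR adjusted p = 5.33e-08), and Sympk, a scaffold of the cleavage complex, rose by 0.66 (edgeR adjusted p = 0.00154). Of 14 Integrator genes, whose complex cuts and terminates many short transcripts, 0 rose and 9 fell (median -1.01), among them Ints2 at -1.98. Of 17 genes of the nuclear exosome, which degrades unprocessed RNA, 0 rose and 14 fell (median -1.58), among them Exosc7 at -3.21 and Mtrex at -3.03. Under upper-quartile scaling, which moved all genes by 0.54, the 3 lists gave 12, 2 and 3 rises and 16, 7 and 11 falls. Scaled to ribosomal protein genes, which moved the median by -1.55, each list gave 0 rises, with 33, 14 and 17 falls. These counts thus depended on scaling in both directions. Under the main scaling, DOX against CFZ gave 3 rises and 23 falls, 1 and 10, and 0 and 13 in the lists. In CFZ-DOX against DOX they gave 5 rises and 5 falls, 0 and 0, and 2 and 5. Their part in the levels of downstream genes was not tested.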

How the data were processed

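The raw counts per gene, with exon coordinates, strand and exon Length, are as deposited by the authors, whole and not normalized. Per the submitters' processing notes, reads were handled with featureCounts (Subread 2.0.2), STAR 2.7.9a and Trimmomatic 0.39, and the build was GRCm39 (mm39). The strand setting, annotation release and handling of read pairs are not given in the sources used here. Symbols and gene classes came from an older annotation (GENCODE M21, on GRCm38), which matched 52073 of 56980 IDs (91.4%), and only its names, classes and transcript ends were used. RefSeq promoters matched 45.2% of downstream and 29.7% of far genes, so promoter composition was not compared over the whole sets. Among protein-coding genes they matched 73.7% and 72.5%.

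A gene's span ran from its smallest start to its largest end, and distance was taken to the nearest edge of the span. CPM are relative to the library total. Differences were tested with edgeR 4.0.16 in R 4.3.3 (quasi-likelihood test, TMM scaling, filterByExpr with a minimum count of 10, all 12 libraries in 1 model, Benjamini-Hochberg adjustment over all genes tested). DESeq2 1.42.0 was an alternative. The code was tested on simulated data. Sums and shares carry no test. Named genes were the 8 highest by mean CPM in DOX and in CFZ-DOX, the 3 highest in CFZ, and up to 4 called genes with the largest and lowest change between CFZ-DOX and DOX, besides genes next to the thresholds and in the loci shown. The members and gene lists were chosen with earlier results of these data known. Same-numbered libraries deviated together in CFZ-DOX and DOX (r of 0.581, 0.353 and 0.654 across genes) and in DOX and CFZ (0.255, 0.181 and 0.216). They did not in each pair of CFZ-DOX and CFZ (0.263, 0.019 and 0.099). The model behind the p-values has no replicate term and so does not use this pairing. A fit with the replicate number as a block was an alternative. A few items among the neighbours and markers are not reported here.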

Additional observations from a re-analysis of the deposited data

How the results depend on the processing

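Of the alternative values, 144 stayed within 1.5 times the count or 1 SD of the value reported and 63 moved. With the replicate number as a block, reflecting the pairing, 327 downstream genes rose and 0 fell in CFZ-DOX against CFZ, 129 and 1 in CFZ-DOX against DOX, and 318 and 1 in DOX against CFZ, so no count moved by over 1.5 times.

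For rises in CFZ-DOX against CFZ, no filter on low counts gave 784, a distance of up to 5 kb 193, a DMSO mean under 0.02 CPM 187 and same-strand genes 149. Ribosomal protein scaling, added after seeing the data, gave 3 falls there. For rises in CFZ-DOX against DOX, library totals gave 39, the 6 libraries compared 55, an adjusted p under 0.01 30, a DMSO mean under 0.02 CPM 55, same-strand genes 37, a start read by the member's strand 59 and ribosomal protein scaling 14. Falls there were 3 without the filter, 10 with ribosomal protein scaling, and 0 with DESeq2, the 6 libraries, the stricter p, 5 kb, 0.02 CPM, same-strand genes and the start by strand. For rises in DOX against CFZ, no filter gave 612, the 6 libraries 165, 5 kb 187, 0.02 CPM 184 and same-strand genes 143, and falls were 3, or 0 with same-strand genes and the start by strand.

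The share at 0.05 CPM in CFZ was 4.52% with a DMSO mean under 0.02 CPM, and genes chosen on CFZ libraries instead had 14.1% in DMSO. In DOX it was 47.3% with 0.02 CPM, 63.2% at lengths of at least 1000 and 43.5% with ribosomal protein scaling. In CFZ-DOX it was 70.2% at 5 kb, 58.8% at 20 kb, 60.3% with 0.02 CPM, 74.1% at 1000 bases, 62.8% with the start by strand, 63.0% on the same strand, 68.1% when chosen on CFZ, 67.6% with TMM sizes and 45.6% with ribosomal protein scaling. Summed RPKM in CFZ was 0.00869 at 5 kb, 0.00522 with 0.02 CPM, 0.00668 at 1000 bases, 0.00951 with the start by strand and 0.0105 when chosen on CFZ. In DOX it was 0.0749 with 0.02 CPM, 0.128 with the start by strand, 0.125 on the same strand and 0.0575 with ribosomal protein scaling, which gave 0.0601 in CFZ-DOX.

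Leaving out each library in turn gave 337 to 410 rises and 0 falls in CFZ-DOX against CFZ, 53 to 112 rises and 0 to 1 falls in CFZ-DOX against DOX, and 364 to 374 rises and 1 to 2 falls in DOX against CFZ. The filter on low counts was rerun in each of these fits, so the genes tested were not the same as in the main fit. The shares were 6.86% to 8.36% in CFZ, 52.7% to 55.6% in DOX and 62.6% to 69.3% in CFZ-DOX, and the summed levels 0.00719 to 0.00811, 0.0857 to 0.107 and 0.122 to 0.176 RPKM. The cause of these movements was not tested. In every library 0.05 CPM is below the level of 3 counts, so the silence of a single gene rests on few reads, and 1070 of the 1400 were too low for the edgeR test.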

Other observations

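Few far genes gave counts at a like level. Of the 15661 silent genes over 100 kb from any expressed gene, 4 averaged at least 1 CPM in DOX or CFZ-DOX. Rasgef1b, a guanine nucleotide exchange factor, averaged 2.7 ± 1.18 CPM in DOX and 1.45 ± 0.924 in CFZ-DOX (SD, n = 3), at 180.1 kb from the nearest expressed gene. Hepacam, a cell adhesion protein, averaged 2.42 ± 0.856 and 1.39 ± 0.982 CPM. Aurkc, a meiotic Aurora kinase, averaged 1.12 ± 0.614 and 1.15 ± 0.863 CPM, and Gm11274 averaged 1.90 ± 0.142 and 1.45 ± 0.517 CPM. Silent genes that overlapped an expressed gene (3123) reached 0.05 CPM in 9.41% of cases in CFZ, 21.4% in DOX and 29.7% in CFZ-DOX, lower in DOX and CFZ-DOX than the downstream genes.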
